A study of Mus musculus with 12 samples.

Results

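The genes described here are 5 members of the tumour necrosis factor (TNF) ligand and receptor families that act in T cell costimulation: the ligand genes Cd40lg, Tnfsf4 and Tnf and the receptor genes Tnfrsf4 and Tnfrsf8. They were chosen by name with earlier results of these data known. They are 5 of the 13404 rows of the gene count table, and all 5 passed the filter on low counts. Ligands of this family are mostly trimeric membrane proteins, some of which are also shed, and their receptors signal through TRAF adaptors and NF-kB or, where a death domain is present, through cell death pathways. Cd40lg encodes CD40 ligand, by which helper T cells activate B cells and dendritic cells through CD40. Tnfsf4 encodes OX40 ligand and Tnfrsf4 its receptor OX40, a costimulatory pair, Tnfrsf8 encodes CD30, the receptor of the ligand gene Tnfsf8, and Tnf encodes the inflammatory cytokine TNF, which binds the receptors encoded by Tnfrsf1a and Tnfrsf1b.

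Poly(A)-enriched RNA was sequenced from regulatory T cells (Treg, sorted as CD4+CD25+), which hold immune responses in check, and from conventional T cells (Tconv, sorted as CD4+), all from spleens of C57BL/6 mice. There were 12 libraries in 6 groups of 2: Treg labelled Dcaf1-deficient from mice of 2 months, aged wild-type Treg from mice of over 18 months, young wild-type Treg from mice of 2 months, and the same 3 groups of Tconv. The labels give no Cre driver, promoter or allele for the Dcaf1 deficiency. They also do not say whether the libraries of a group came from separate mice or from pools. The p-values thus measure the spread between these libraries. Xist, given below, was high in only 1 library each of aged Treg, aged Tconv and Treg labelled Dcaf1-deficient. The libraries of those groups thus came from different mice or pools. In the other groups the spread may be technical. The design compared aged with young cells and cells labelled Dcaf1-deficient with wild-type cells of the same age, each in both cell types.

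Totals ranged from 18358477 to 26852448 estimated counts per library, and levels are given as CPM, counts scaled to library size, which can be compared between libraries for 1 gene but not between genes. Dcaf1, named Vprbp in the table, was at 102 and 101 CPM in Treg labelled Dcaf1-deficient, against 144 and 128 CPM in young Treg, and at 132 and 132 CPM in Tconv labelled Dcaf1-deficient, against 147 and 144 CPM in young Tconv. Counts summed over a gene cannot reveal the loss of single exons, so the groups are named by their label. Foxp3, the defining Treg transcription factor, was at 535 to 1986 CPM in the 6 Treg libraries and at 47.7 to 675 CPM in the 6 Tconv libraries, the highest of these being the aged Tconv.

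The libraries differed in transcripts of other cell types, as the plot of summed markers shows. The 13 T cell markers in the table, of 17 listed, summed to 3779 to 8813 CPM in the 6 Treg libraries and to 10722 to 11820 CPM in the 6 Tconv libraries. The 10 macrophage markers, of 13 listed, summed to 12751 and 15866 CPM in Treg labelled Dcaf1-deficient, to 10815 and 639 CPM in aged Treg and to 145 and 4292 CPM in young Treg, so that aged Treg 1 and young Treg 2 stood apart from their replicates. In Tconv the same sum was 1059 and 1137 CPM in the libraries labelled Dcaf1-deficient, 74.4 and 78.0 CPM in aged and 18.8 and 275 CPM in young Tconv. The 11 Treg markers, of 14 listed, which include the receptor gene Tnfrsf18, summed to 2828 and 4308 CPM in aged Tconv, against 519 and 635 CPM in young Tconv. No marker of these 3 lists, or of the B cell and dendritic cell lists with 8 of 12 and 6 of 9 markers in the table, was at 0 in both libraries of a group. Erythroid markers, 6 of 10 listed, summed to 4.74 to 9362 CPM over the 12 libraries. In bulk RNA a larger share of cells of a type and more RNA per cell cannot be told apart. Sample titles carry a tag, L3, L4 or L5, with no meaning given, and L3 is carried by aged Treg 2 and aged Tconv 2 alone.

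**Figure D1:**
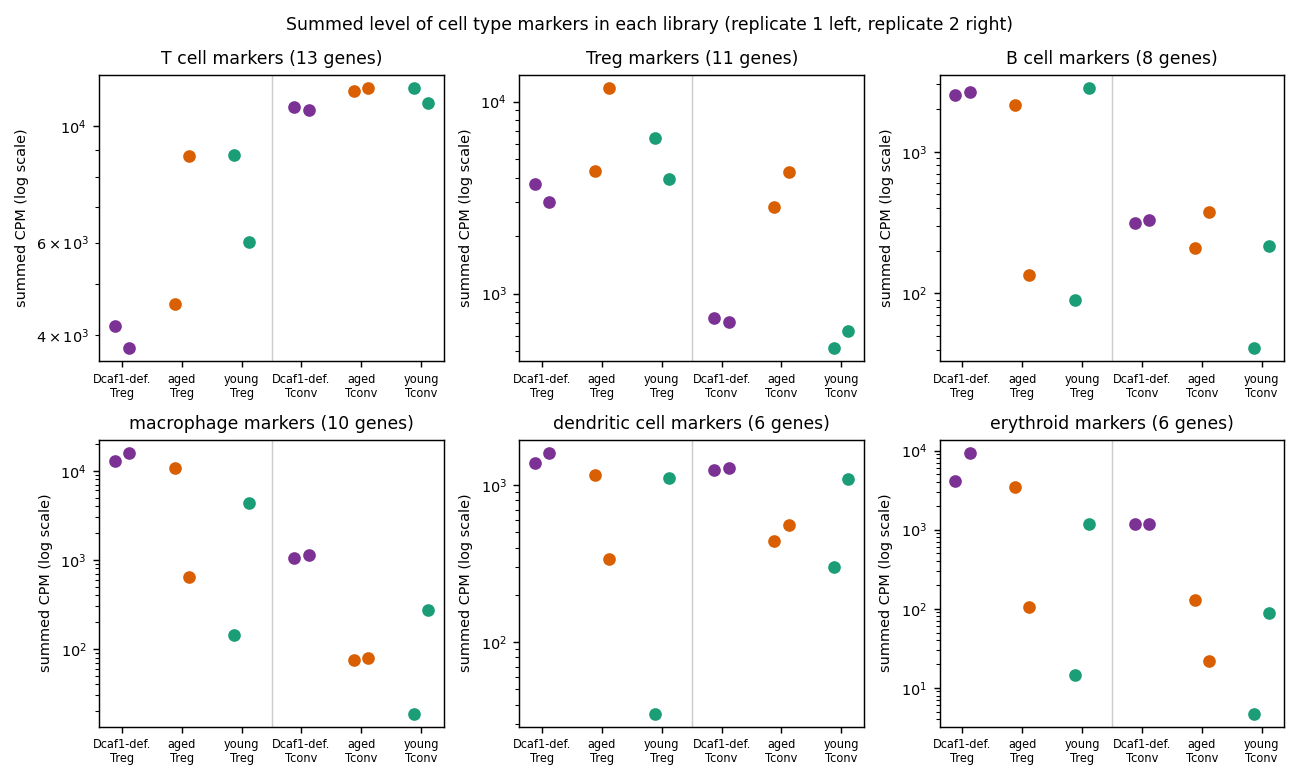
Summed CPM of cell type markers (log axis) in each library, with groups on the horizontal axis and 1 point per library. The macrophage sums of the Treg libraries run from 145 to 15866 CPM, and the Treg marker sums of aged Tconv, 2828 and 4308 CPM, lie above those of young Tconv, 519 and 635 CPM.

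Over all libraries Cd40lg was lower in Treg than in Tconv and the receptor genes Tnfrsf4 and Tnfrsf8 were higher in Treg. Aged Tconv differed from young Tconv in all 5, where 8.86% of all genes tested were called. A fit of only those groups called 0 of the 5, and 3 of all genes. With age, Tconv transcripts of Tnfsf4, Tnfrsf4, Tnfrsf8 and Tnf rose and those of Cd40lg fell. In Treg the age differences had the same signs, but none passed the threshold of an adjusted p of 0.05 in edgeR's quasi-likelihood test over all genes. Cells labelled Dcaf1-deficient had higher levels of Tnfsf4 than young cells in both cell types, and again no difference passed that test.

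**Figure D2:**
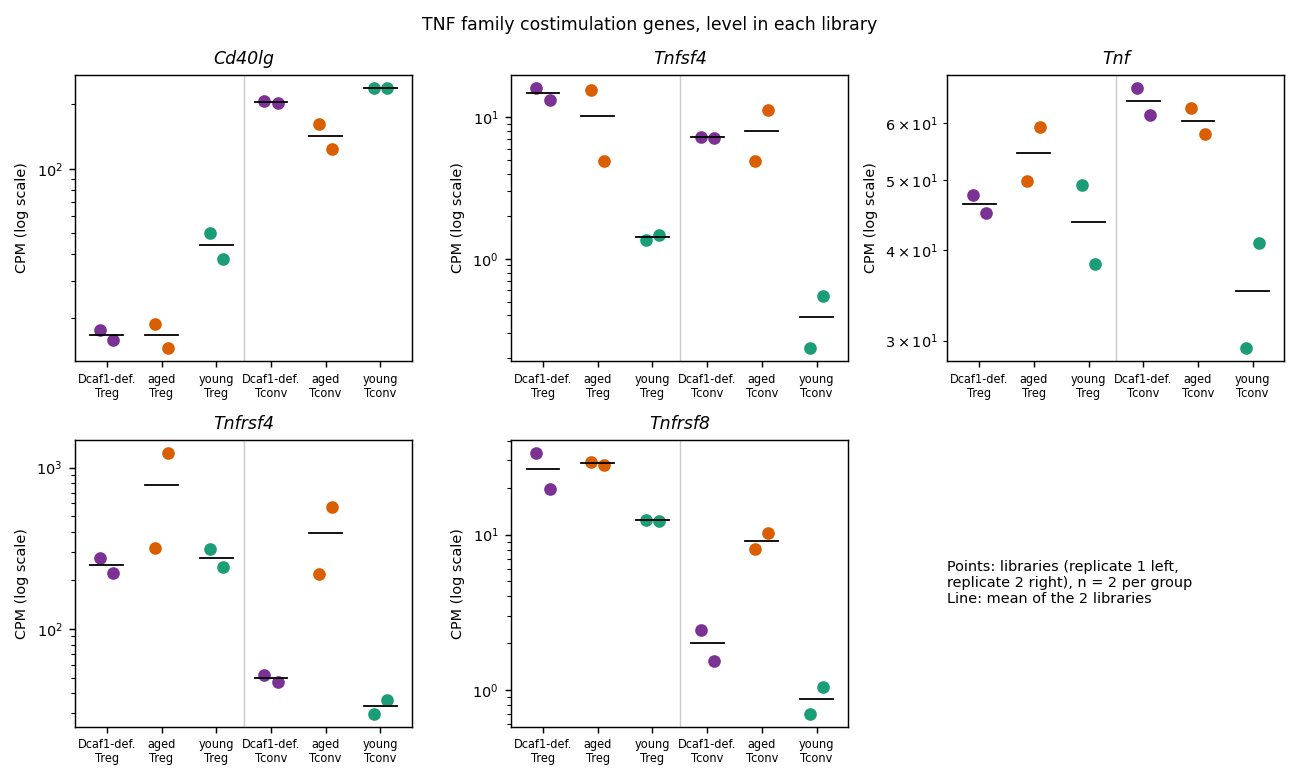
CPM (log axis, a scale of its own in each panel) of the 5 genes in each of the 12 libraries, with groups on the horizontal axis, 1 point per library and a line at the mean of the 2 libraries. Cd40lg lies between 14.5 and 50.1 CPM in the 6 Treg libraries and between 123 and 239.9 CPM in the 6 Tconv libraries.

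Cd40lg (GRCm38.p6, chrX:57212143-57224042, plus strand) separated the cell types in every background. It was at 17.7 and 15.8 CPM in Treg labelled Dcaf1-deficient, 18.8 and 14.5 CPM in aged Treg and 50.1 and 37.8 CPM in young Treg. Tconv labelled Dcaf1-deficient had 209 and 203 CPM, aged Tconv 162 and 123 CPM and young Tconv 239.9 and 239 CPM. All 6 Treg libraries lay below all 6 Tconv libraries, a separation met by 4.18% of the 9495 genes tested. Ordered by mean, young Tconv stood highest, followed by Tconv labelled Dcaf1-deficient, aged Tconv and young Treg, each apart from the next, and the last groups, Treg labelled Dcaf1-deficient and aged Treg, overlapped.

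The Treg level of Cd40lg was lower in each of the 3 backgrounds by edgeR. The log2 fold change of Treg over Tconv was -3.62 in the libraries labelled Dcaf1-deficient (SE 0.21, edgeR adjusted p 0.00111), -3.10 in aged cells (SE 0.20, edgeR adjusted p 0.00211) and -2.45 in young cells (SE 0.20, edgeR adjusted p 0.00602). Over all Treg against all Tconv it was -3.05 (SE 0.12, edgeR adjusted p 4.57e-05). Scaling the libraries by the T cell markers instead of TMM moved the median of all genes by 0.665 to 1.44 in these comparisons and left Cd40lg lower in all of them. In the young comparison 2 of the 5 members were called, Cd40lg and Tnfrsf8, against 0.8% of all genes tested. In the aged comparison 1 member was called, Cd40lg, against 0.821%, and in the libraries labelled Dcaf1-deficient again Cd40lg and Tnfrsf8, against 2.22%. Without young Tconv 1 or young Tconv 2, which leaves a group of 1, the young comparison called no member and no other gene. Without young Treg 1 it called fewer members, and fewer of all genes.

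With age Cd40lg fell in Tconv, to 162 and 123 CPM in aged Tconv against 239.9 and 239 CPM in young Tconv (-0.74 on the log2 scale, SE 0.19, edgeR adjusted p 0.0478). The log2 fold change was -0.56 without aged Tconv 2, -0.74 without young Tconv 1 and -0.76 without young Tconv 2. Each of these fits leaves 1 library in a group and lost the call. Without either young library no gene at all was called. In Treg the aged libraries had 18.8 and 14.5 CPM, against 50.1 and 37.8 CPM in young Treg, with no overlap (-1.40 on the log2 scale, SE 0.19, edgeR adjusted p 0.112). Without aged Treg 1, the replicate with the high macrophage sum, that difference was -1.60. This sets 1 aged library against 2 young ones and assumes that it varies like the other groups. The aged library left carries tag L3 and the young ones tag L4, and they also differ in Xist, given below. Age cannot be told apart from these there. DESeq2 called the Cd40lg difference with all libraries (adjusted p 2.01e-07). The libraries labelled Dcaf1-deficient differed from young cells by -1.39 in Treg (SE 0.19, edgeR adjusted p 0.131) and by -0.22 in Tconv (SE 0.19, edgeR adjusted p 0.682). In these Treg libraries the T cell marker sum was 4169 and 3779 CPM, against 8813 and 6026 CPM in young Treg, and its part in the Cd40lg difference was not tested beyond the scaling to those markers, which gave -0.50 (edgeR adjusted p 0.274).

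Cd40lg lies on the X chromosome, and the labels do not give the sex of the mice. Xist, transcribed from the inactive X of females, was at 1263 to 2018 CPM in aged Treg 2, aged Tconv 2, both Tconv libraries labelled Dcaf1-deficient and the second Treg library so labelled, and at 1.37 to 2.94 CPM in the other 7. Within groups that held both kinds, Cd40lg was lower in the Xist-high library. It was at 15.8 against 17.7 CPM in Treg labelled Dcaf1-deficient, 14.5 against 18.8 CPM in aged Treg and 123 against 162 CPM in aged Tconv. In both aged groups the Xist-high library is also the one of tag L3, so Xist level and tag cannot be told apart there. In the same order, the T cell marker sum was 3779 against 4169, 8758 against 4589 and 11820 against 11650 CPM. The macrophage sum in aged Treg was 639 against 10815 CPM. Whether sex bears on the age differences and on the label difference in Treg was not tested. In Tconv, Xist was at 1321 and 1339 CPM in the libraries labelled Dcaf1-deficient and at 2.39 and 2.64 CPM in young Tconv. Label and Xist level thus cannot be told apart in that comparison, for any of the members.

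Tnfsf4 (chr1:161395438-161418206, plus strand), the OX40 ligand gene, had the widest relative range between libraries of the 5 genes. Its level was 16.2 and 13.3 CPM in Treg labelled Dcaf1-deficient, 15.6 and 4.88 CPM in aged Treg and 1.37 and 1.47 CPM in young Treg. In Tconv it was 7.22 and 7.18 CPM in the libraries labelled Dcaf1-deficient, 4.89 and 11.2 CPM in aged Tconv and 0.235 and 0.55 CPM in young Tconv, where the counts were 5 and 10. The young groups were lowest in both cell types, and the other 4 groups overlapped along their order by mean. In Tconv the level was higher in aged than in young cells by 4.36 on the log2 scale (SE 0.72, edgeR adjusted p 0.0202). Without aged Tconv 2 it was higher by 3.64, without young Tconv 1 by 3.86 and without young Tconv 2 by 5.06. Each of these fits leaves 1 library in a group and lost the call. Without either young library no gene at all was called.

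In Tconv labelled Dcaf1-deficient, Tnfsf4 differed from young Tconv by 4.19 (SE 0.72, edgeR adjusted p 0.203), a size near that of the age difference, which used the same young libraries. DESeq2 called it (adjusted p 8.06e-06), as did edgeR fitted to those 4 libraries alone (adjusted p 0.0122), a fit that called 12.2% of genes. In Treg the log2 fold change over young Treg was 3.37 in the libraries labelled Dcaf1-deficient (SE 0.66, edgeR adjusted p 0.131) and 2.85 for aged Treg (SE 0.65, edgeR adjusted p 0.131), and DESeq2 called both (adjusted p 7.05e-05 and 0.000994). Antigen-presenting cells are the best known source of OX40 ligand, and the part of their transcripts in these differences was not tested. Treg labelled Dcaf1-deficient had the highest macrophage sums, 12751 and 15866 CPM, and the highest mean of Tnfsf4. Tconv labelled Dcaf1-deficient had 1059 and 1137 CPM of macrophage markers beside 7.22 and 7.18 CPM of Tnfsf4, against 18.8 and 275 CPM beside 0.235 and 0.55 CPM in young Tconv. Young Treg 2, with 4292 CPM of macrophage and 2842 CPM of B cell markers, had 1.47 CPM of Tnfsf4, and young Treg 1, with 145 and 89.0 CPM of those markers, had 1.37 CPM. Aged Treg 1 had 10815 CPM of macrophage markers and 15.6 CPM of Tnfsf4, and aged Treg 2 had 639 CPM and 4.88 CPM. In aged Tconv, where the macrophage sum was 74.4 and 78.0 CPM, Tnfsf4 was at 4.89 and 11.2 CPM. The 6 dendritic cell markers summed to 1246 and 1291 CPM in Tconv labelled Dcaf1-deficient and 438 and 559 CPM in aged Tconv, against 300 and 1102 CPM in young Tconv. Young Tconv 2, at 1102 CPM of those markers, had 0.55 CPM of Tnfsf4.

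Tnfsf4 was higher in Treg than in Tconv without overlap in the libraries labelled Dcaf1-deficient and in young cells and overlapped in aged cells, and no comparison passed the edgeR test. The log2 fold change of Treg over Tconv was 1.03 in the libraries labelled Dcaf1-deficient (edgeR adjusted p 0.31), 0.35 in aged cells (edgeR adjusted p 0.79) and 1.85 in young cells (edgeR adjusted p 0.271). The aged difference turned to -0.72 without aged Treg 1 and to -0.13 without aged Tconv 1.

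Tnf (chr17:35199367-35202007, minus strand) had the smallest relative range of the 5 genes. Its level was 47.7 and 45.0 CPM in Treg labelled Dcaf1-deficient, 49.8 and 59.2 CPM in aged Treg and 49.3 and 38.3 CPM in young Treg. Tconv labelled Dcaf1-deficient had 67.1 and 61.5 CPM, aged Tconv 62.9 and 57.8 CPM and young Tconv 29.3 and 40.9 CPM. Both Tconv groups lay above young Tconv without overlap. With age Tnf rose in Tconv by 0.78 on the log2 scale (SE 0.19, edgeR adjusted p 0.0456), a ratio of means of 1.72, and the call was lost without any 1 of the 4 libraries, at edgeR adjusted p of 0.069 to 0.243. Tconv labelled Dcaf1-deficient differed from young Tconv by 0.87 (SE 0.19, edgeR adjusted p 0.304; DESeq2 adjusted p 0.00293).

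In Treg, Tnf differed from young Treg by 0.08 in the libraries labelled Dcaf1-deficient (SE 0.19, edgeR adjusted p 0.79) and by 0.32 in aged cells (SE 0.19, edgeR adjusted p 0.408). Between Treg and Tconv, Tnf did not overlap in the libraries labelled Dcaf1-deficient and overlapped in aged and young cells. The log2 fold change of Treg over Tconv was -0.47 in the libraries labelled Dcaf1-deficient (SE 0.19, edgeR adjusted p 0.178), -0.15 in aged cells (edgeR adjusted p 0.706) and 0.32 in young cells (edgeR adjusted p 0.485). The first was called when only those 4 libraries were fitted (-0.48, edgeR adjusted p 0.00551), where 51.8% of genes were called. The first and the second became 0.97 and 0.77 when libraries were scaled to the T cell markers, and at 0.97 Tnf was called higher (edgeR adjusted p 0.0164), as were 76.5% of genes.

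Tnfrsf4 (chr4:156013595-156016613, plus strand), the OX40 gene, had its highest levels in the aged libraries of tag L3. It was at 274 and 222 CPM in Treg labelled Dcaf1-deficient, 319 and 1233 CPM in aged Treg and 312 and 242 CPM in young Treg. In Tconv it was 51.8 and 47.2 CPM in the libraries labelled Dcaf1-deficient, 219 and 573 CPM in aged Tconv and 29.99 and 36.5 CPM in young Tconv. Aged Tconv thus overlapped with each Treg group, and the lowest aged Treg library, at 319 CPM, lay just above the highest young Treg library, at 312 CPM. Treg labelled Dcaf1-deficient overlapped with young Treg. The rise in Tconv with age was 3.58 on the log2 scale (SE 0.67, edgeR adjusted p 0.0248). Within tag L5, with 1 library on each side, aged Tconv 1 was higher than young Tconv 2 by 2.58. With both L3 libraries left out, and so 1 aged Tconv library, the rise was 2.72 (edgeR adjusted p 0.00263; 8.43% of genes called), while leaving out aged Tconv 2 alone gave an edgeR adjusted p of 0.0967.

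In aged Treg the difference from young Treg was 1.49 (SE 0.61, edgeR adjusted p 0.262) and 0.21 without the L3 libraries (edgeR adjusted p 0.529). Treg labelled Dcaf1-deficient and young Treg overlapped (-0.16, SE 0.60, edgeR adjusted p 0.874), and Tconv labelled Dcaf1-deficient lay above young Tconv by 0.57 (SE 0.61, edgeR adjusted p 0.739). Over all libraries Treg exceeded Tconv in Tnfrsf4 by 2.12 (SE 0.36, edgeR adjusted p 0.00934). By background the difference was 2.33 in the libraries labelled Dcaf1-deficient (edgeR adjusted p 0.0887), 0.97 in aged cells (edgeR adjusted p 0.41) and 3.06 in young cells (edgeR adjusted p 0.0793). DESeq2 called the first and the last of these (adjusted p 0.000985 and 9.64e-06). The aged difference turned to -0.31 without aged Treg 2.

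Tnfrsf8 (chr4:145267132-145315164, minus strand), the CD30 gene, was at 33.5 and 19.6 CPM in Treg labelled Dcaf1-deficient, 29.3 and 28.2 CPM in aged Treg and 12.4 and 12.2 CPM in young Treg. It was at 2.44 and 1.54 CPM in Tconv labelled Dcaf1-deficient, 8.11 and 10.2 CPM in aged Tconv and 0.704 and 1.05 CPM in young Tconv. Every Treg library lay above every Tconv library. Ordered by mean, aged Treg and Treg labelled Dcaf1-deficient overlapped at the top, and young Treg, aged Tconv, Tconv labelled Dcaf1-deficient and young Tconv followed, each apart from the next.

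Treg exceeded Tconv in Tnfrsf8 by 3.73 on the log2 scale in the libraries labelled Dcaf1-deficient (SE 0.37, edgeR adjusted p 0.0112) and by 3.81 in young cells (SE 0.38, edgeR adjusted p 0.0114). In aged cells the difference was 1.65 (SE 0.34, edgeR adjusted p 0.0745; DESeq2 adjusted p 9.35e-05). In the libraries labelled Dcaf1-deficient the tag of the titles differs between Treg and Tconv and cannot be told apart from cell type. Fits without Treg 1, Tconv 1 or Tconv 2 of that label leave 1 library in a group and lost the Tnfrsf8 call. Calls over all genes fell in those fits as well. Over all libraries the difference was 3.07 (SE 0.21, edgeR adjusted p 0.000365), and 3 of the 5 members were called there, Cd40lg, Tnfrsf4 and Tnfrsf8, against 22.5% of the genes tested.

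With age Tnfrsf8 rose in Tconv by 3.38 (SE 0.38, edgeR adjusted p 0.0126) to a mean of 9.14 CPM in aged Tconv, against 0.875 CPM in young Tconv. Without young Tconv 1 or young Tconv 2 the edgeR adjusted p was 0.154 or 0.118. Aged Treg differed from young Treg by 1.22 (SE 0.33, edgeR adjusted p 0.162) and Treg labelled Dcaf1-deficient by 1.11 (SE 0.33, edgeR adjusted p 0.139), both without overlap, and DESeq2 called both (adjusted p 0.00933 and 0.0156). Tconv labelled Dcaf1-deficient differed from young Tconv by 1.19 (SE 0.36, edgeR adjusted p 0.421).

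**Figure D3:**
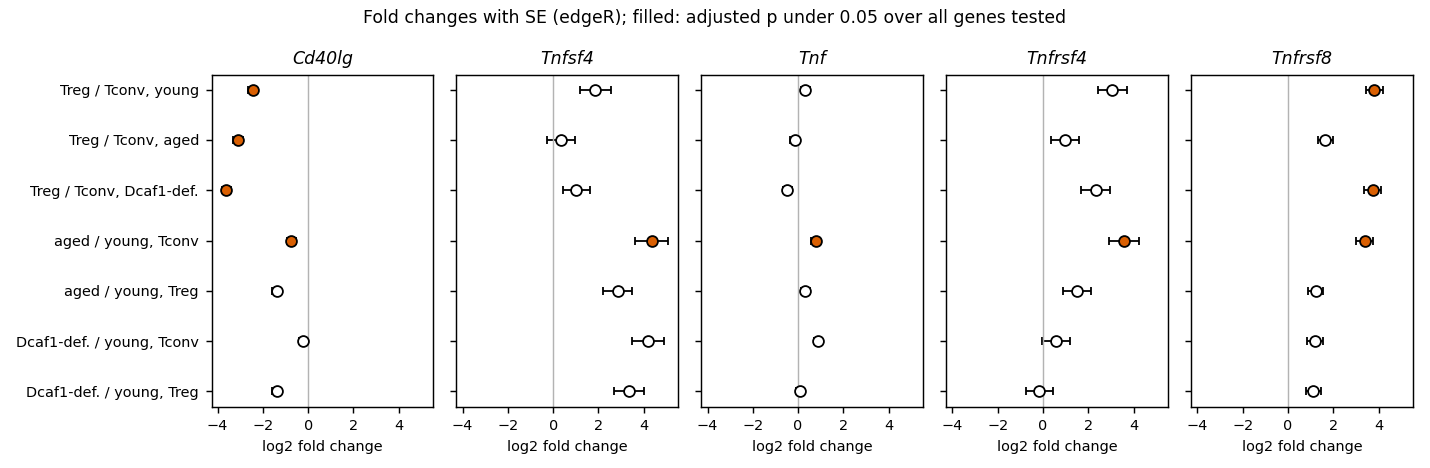
Log2 fold change (horizontal axis) with its SE for each of the 5 genes in 7 comparisons, in the direction written on the vertical axis; filled points have an edgeR adjusted p under 0.05 over the 9495 genes tested. In the row of aged over young Tconv all 5 points are filled, from -0.74 for Cd40lg to 4.36 for Tnfsf4.

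Counted together, aged against young Tconv called 4 members higher and 1 lower, where edgeR called 8.86% of the 9495 genes tested, 6.38% higher and 2.47% lower. The members were chosen with earlier results of these data known, so setting their count beside that share is not a test. All 5 separated the aged from the young Tconv libraries, as did 59% of the genes tested. Fits without young Tconv 1 or young Tconv 2, which leave a group of 1, called no member and no other gene. Without aged Tconv 2 only Tnfrsf8 stayed called among the members, and calls over all genes fell as well. Cd40lg and Tnf lost their calls without both L3 libraries, which leaves 1 aged Tconv library. A fit of only the 4 Tconv libraries compared called 0 members, and 3 of all genes. Treg markers moved with this comparison, at 2828 and 4308 CPM in aged Tconv against 519 and 635 CPM in young Tconv. Foxp3 was at 334 and 675 CPM in aged Tconv against 47.7 and 78.4 CPM in young Tconv, and Il2ra, which encodes the sorting marker CD25, at 43.1 and 29.7 CPM against 31.8 and 63.2 CPM. The lymphoid tissue inducer list, with 5 of 6 markers in the table, was at 76.3 and 437 CPM against 31.5 and 70.6 CPM. The NK and CD8 T cell list, with 4 of 8 markers in the table, was at 233 and 507 CPM in aged Tconv against 58.3 and 74.0 CPM in young Tconv, without overlap. The part of these cells in the differences of Cd40lg, Tnfsf4, Tnfrsf4, Tnfrsf8 and Tnf was not tested.

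Groups of 2 that did not overlap were common among all genes. Aged and young Treg were apart in each of the 5 members, as in 42.7% of the genes tested, and Tconv labelled Dcaf1-deficient and young Tconv were also apart in 5 (66.8% of genes). Treg labelled Dcaf1-deficient and young Treg were apart in 3, Cd40lg, Tnfsf4 and Tnfrsf8 (72.1%). Treg and Tconv were apart in 5 members in the libraries labelled Dcaf1-deficient (77%), in 2, Cd40lg and Tnfrsf8, in aged cells (34.2%) and in 4, Tnf being the exception, in young cells (49.3%).

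In aged against young Treg, edgeR called 0 members and 0 of 9495 genes (0%), with 1697 at an unadjusted p under 0.05, while DESeq2 called 722 genes, Cd40lg, Tnfsf4 and Tnfrsf8 among them, and limma on the deposited log2 values called 2 genes and 0 members. For the libraries labelled Dcaf1-deficient against young Treg the edgeR count was also 0 (0%), with 2359 genes at an unadjusted p under 0.05, 1185 called by DESeq2 with the same 3 members among them, and 0 by limma. For Tconv labelled Dcaf1-deficient against young Tconv it was 0 (0%), with 954 at an unadjusted p under 0.05, 227 called by DESeq2 with Tnfsf4 and Tnf among them, and 11 by limma with 0 members. Without young Treg 2 and aged Treg 1, the pair that stood apart, Cd40lg differed by -1.82 in aged against young Treg. That comparison holds 1 library on each side, with the spread taken from the other groups. Aged Treg 2 carries tag L3 and had 2018 CPM of Xist, and young Treg 1 carries tag L4 and had 1.41 CPM. Age cannot be told apart from tag or Xist level there. In Treg labelled Dcaf1-deficient against the 1 young Treg library left, Cd40lg differed by -1.57 and Tnfsf4 by 3.43.

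Whether age acted differently in the cell types was tested as the age difference in Treg minus that in Tconv. By edgeR this called 0 genes (0%), with 615 at an unadjusted p under 0.05, 134 called by DESeq2 and 1 by limma. For Tnfrsf8 it was -2.16 (SE 0.49, unadjusted p 0.00214, edgeR adjusted p 0.392; DESeq2 adjusted p 0.0132), and for Tnfrsf4 -2.09 (SE 0.86, edgeR adjusted p 0.744). Without the L3 libraries the Tnfrsf4 value was -2.52 (edgeR adjusted p 0.0427), with 38 genes called (0.394%). Both aged groups then hold 1 library, aged Treg 1 being the one with the high macrophage sum, and the spread comes from the other groups. Tnfsf4, Cd40lg and Tnf gave -1.51, -0.65 and -0.47, with edgeR adjusted p of 0.744 to 0.893. The label difference in Treg minus that in Tconv was -1.17 for Cd40lg (SE 0.26, unadjusted p 0.00222, edgeR adjusted p 1) and -0.79 for Tnf (SE 0.27, unadjusted p 0.0191, edgeR adjusted p 1). EdgeR called 0 genes in it (0%), with 260 at an unadjusted p under 0.05, 1 called by DESeq2 and 0 by limma.

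Other TNF family genes were read from lists of 18 ligand and 28 receptor genes, of which 12 and 17 were tested, the members included. In aged against young Tconv, where 6.38% of all genes were called higher and 2.47% lower, 2 ligand genes were called higher, Tnfsf4 and Tnf, and 1 lower, Cd40lg, with a list median log2 fold change of 0.67 against -0.00167 for all genes. Of the receptors 3 were called higher, Tnfrsf4, Tnfrsf8 and Tnfrsf1b, and 0 lower, with a median of 0.02. Tnfrsf1b encodes TNFR2, the TNF receptor without a death domain, and was at 491 and 1178 CPM in aged Tconv against 127 and 181 CPM in young Tconv (2.44 on the log2 scale, SE 0.56, edgeR adjusted p 0.0409), or 1.68 without aged Tconv 2 (edgeR adjusted p 0.199). Among 28 tested genes of TRAF and NF-kB signalling 2 were called higher and 0 lower, with a median of 0.29, a share close to that of all genes. These were Bcl3, an atypical IkB protein, at 104 and 114 CPM in aged Tconv against 34.6 and 31.9 CPM in young Tconv (1.71, SE 0.21, edgeR adjusted p 0.0126), and Nfkbib, an NF-kB inhibitor, by 0.50. Of 16 tested other costimulatory and coinhibitory genes 4 were called higher and 0 lower, with a median of 0.54. The inhibitory receptor genes Pdcd1 and Lag3 rose by 5.41 (SE 0.91, edgeR adjusted p 0.0208) and 5.82 (SE 1.04, edgeR adjusted p 0.0233), and the CD28 family receptor genes Icos and Ctla4 by 1.81 and 3.08. Pdcd1 was at 338 and 1574 CPM in aged Tconv against 24.7 and 20.2 CPM in young Tconv, and Lag3 at 457 and 2587 CPM against 22.3 and 31.5 CPM. Without aged Tconv 2, the higher library, the differences were 3.91 for Pdcd1 (edgeR adjusted p 0.0576) and 4.09 for Lag3 (edgeR adjusted p 0.067), and Icos and Ctla4 were not called (edgeR adjusted p 0.109 and 0.103). Without young Tconv 1 or without young Tconv 2, which leaves a group of 1, edgeR called no gene of any list and no other gene. With the T cell marker scaling it called 1 ligand gene higher and 0 lower and 4 receptor genes higher. Of all genes, 4.57% were then called higher and 0.179% lower. Ctla4 and Tnfrsf18 are also on the Treg marker list. Nfkbib, Icos and Ctla4 were named after their values were seen.

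**Figure D4:**
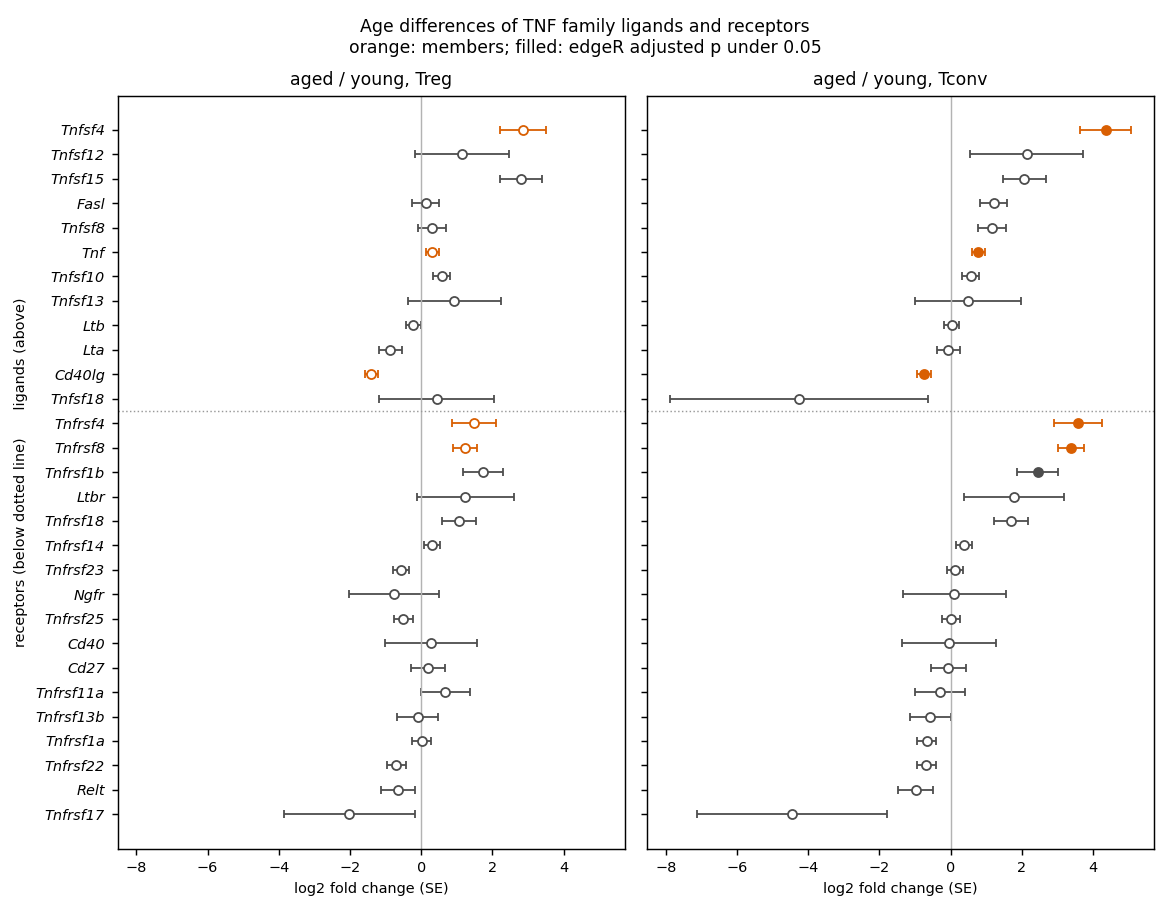
Log2 fold change with SE of the 29 tested TNF family ligand and receptor genes (vertical axis), aged over young, in Treg on the left and Tconv on the right; the 5 members are orange and filled points have an edgeR adjusted p under 0.05. In Tconv 6 points are filled, the 5 members and Tnfrsf1b, and in Treg 0.

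Over all Treg against all Tconv, where 11.5% of all genes were called higher and 11% lower, 6 ligand genes were called higher and 3 lower, and 5 receptor genes higher and 1 lower, with list medians of 0.875 and 1.17 against -0.00232 for all genes. Of the ligand genes called higher, Tnfsf12, Tnfsf13 and Tnfsf18 were higher in the library with the higher macrophage sum within each Treg group. Lta, Tnfsf10 and Tnfsf15 did not follow those sums in every group. These genes were named after their values were seen, and the part of macrophage transcripts in their calls was not tested. Besides Cd40lg, the death ligand gene Fasl was lower in Treg (-2.31 on the log2 scale, SE 0.22, edgeR adjusted p 0.00165). The Treg counts depended on the scaling. With libraries scaled to the T cell markers, which moved the median of all genes to 1.01 and called 83.9% of all genes higher and 0.979% lower, 9 ligand genes were called higher and 2 lower (Cd40lg at -2.03 and Fasl at -1.31), and 16 receptor genes higher and 0 lower. In TRAF and NF-kB signalling 2 genes were called higher and 2 lower, with a median of 0.000569. Of these Bcl2l1, the survival gene of BCL-XL and an NF-kB target, was higher by 1.56 (SE 0.10, edgeR adjusted p 0.000365), and Map3k14, the kinase NIK of the non-canonical NF-kB pathway, was lower (-0.81, SE 0.07, edgeR adjusted p 0.00141), though at 0.22 with the T cell marker scaling, where 26 of the 28 genes were called higher, near the share of all genes. Of the other costimulatory genes 5 were called higher and 1 lower, with a median of 0.02, and Cd200, an inhibitory ligand, was higher by 0.81 (SE 0.12, edgeR adjusted p 0.00529); the scaling to T cell markers gave 11 of 16 higher and 0 lower. In the 3 comparisons within a background, the called genes of the TNF lists were Cd40lg in each, Tnfrsf8 in young cells and the libraries labelled Dcaf1-deficient, and Fasl in aged cells and the libraries labelled Dcaf1-deficient.

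Binding partners of the members were also measured, and were named after their values were seen. Cd40, the receptor of CD40 ligand and a marker of B cells, was at 40.7 and 39.1 CPM in Treg labelled Dcaf1-deficient, 38.2 and 17.1 CPM in aged Treg and 1.18 and 44.3 CPM in young Treg. These levels were high in the Treg libraries with high B cell sums, which were 2500 and 2642 CPM in Treg labelled Dcaf1-deficient, 2132 and 134 CPM in aged Treg and 89.0 and 2842 CPM in young Treg. Tnfsf8, the CD30 ligand gene, was at 71.8 and 55.3 CPM in Treg labelled Dcaf1-deficient, 69.8 and 96.4 CPM in aged Treg and 80.8 and 52.9 CPM in young Treg. Tconv labelled Dcaf1-deficient had 130 and 125 CPM, aged Tconv 289.8 and 117 CPM and young Tconv 94.8 and 87.6 CPM. Over all libraries Tnfsf8 was lower in Treg, where its receptor gene Tnfrsf8 was higher (Tnfsf8 -0.91 on the log2 scale, SE 0.23, edgeR adjusted p 0.0285), but it was at 0.06 with the T cell marker scaling (edgeR adjusted p 0.786).

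Each of 4 members lies beside another gene of its family. Tnf is 1157 bases from Lta, which encodes lymphotoxin alpha, and 3061 bases from Ltb, which encodes lymphotoxin beta. Neither was called in aged against young Tconv, where Tnf was: Lta was at 40.2 and 25.1 CPM in aged against 34.1 and 34.4 CPM in young Tconv (-0.07 on the log2 scale, SE 0.32, edgeR adjusted p 0.905), and Ltb at 667 and 501 CPM against 565 and 581 CPM (0.03, SE 0.20, edgeR adjusted p 0.943). Over all Treg against all Tconv, Lta was higher by 1.29 (SE 0.19, edgeR adjusted p 0.00557) and Tnf differed by -0.10 (SE 0.11, edgeR adjusted p 0.53), or by 0.90 with the T cell marker scaling (edgeR adjusted p 0.00158). Tnfrsf4 is 9708 bases from Tnfrsf18, which encodes the costimulatory receptor GITR. Tnfrsf18 was at 177 and 335 CPM in aged against 76.5 and 81.5 CPM in young Tconv (1.70, SE 0.48, edgeR adjusted p 0.067) and was higher in all Treg than in all Tconv by 1.36 (SE 0.28, edgeR adjusted p 0.0162). Tnfrsf8 is 20261 bases from Tnfrsf1b, described above, and Tnfsf4 is 76450 bases from Tnfsf18, the GITR ligand gene. Tnfsf18 had 74 and 192 counts in Treg labelled Dcaf1-deficient, 62 and 5 in aged Treg and 0 and 44 in young Treg, with 12 and 8 in Tconv labelled Dcaf1-deficient, 0 and 0 in aged Tconv and 1 and 3 in young Tconv. Within the Treg groups its counts were higher in the libraries with higher macrophage sums.

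Members moved together in part across the 12 libraries, which share cell type, condition and composition, so these are descriptions without a test. Pearson correlation of log2 CPM was 0.897 between Tnfrsf4 and Tnfrsf8 and -0.902 between Cd40lg and Tnfrsf8. Tnfsf4 and its receptor gene Tnfrsf4 had 0.496, and Tnf and Cd40lg 0.01. Among the 7533 tested genes averaging 4 CPM or more, the 3 most like Cd40lg were Themis (0.987), Gtf2i (0.984) and Coq9 (0.983), and those most like Tnfsf4 were Inppl1 (0.973), Cks2 (0.943) and Cdkn1a (0.943). Most like Tnfrsf4 were Arhgef5 (0.988), Med7 (0.985) and Ralgds (0.985), and most like Tnfrsf8 were Irf4 (0.962), Prnp (0.955) and Cd81 (0.952). For Tnf the closest, Prr13 (0.879), Acot7 (0.854) and Slc25a24 (0.853), were less alike.

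Cd40lg and Tnfsf4 had no entry in the RefSeq promoter table (GRCm38.p6). Promoter sequences are shown for the 3 members matched there, Tnfrsf4, Tnfrsf8 and Tnf. Each runs 5′ to 3′ on the gene's strand and ends before the gene, at chr4:156013445-156013594 for Tnfrsf4, chr4:145315165-145315414 for Tnfrsf8 and chr17:35202008-35202257 for Tnf. Capitals mark matches, on either strand, to 1 of 5 motifs: the NFAT core GGAAA, AP-1 TGANTCA, the TATA box TATAAA, the forkhead motif GTAAACA and the NF-kB motif.
Tnfrsf4: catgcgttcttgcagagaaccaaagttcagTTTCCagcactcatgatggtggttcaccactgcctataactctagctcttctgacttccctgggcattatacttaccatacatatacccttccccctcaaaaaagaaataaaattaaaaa
Tnfrsf8: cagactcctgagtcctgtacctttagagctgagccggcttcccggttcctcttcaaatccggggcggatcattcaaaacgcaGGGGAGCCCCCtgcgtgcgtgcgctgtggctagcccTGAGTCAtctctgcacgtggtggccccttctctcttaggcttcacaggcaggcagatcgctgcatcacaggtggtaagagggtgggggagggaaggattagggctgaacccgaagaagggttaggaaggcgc
Tnf: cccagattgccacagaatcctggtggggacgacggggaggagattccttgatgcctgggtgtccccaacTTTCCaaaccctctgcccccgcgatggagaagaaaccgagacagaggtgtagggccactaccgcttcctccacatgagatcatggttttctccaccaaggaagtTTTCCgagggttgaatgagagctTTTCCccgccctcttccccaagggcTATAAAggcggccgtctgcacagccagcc

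The Tnfrsf4 window, of 150 bases because the promoter table's start lies inside the gene's span, held 1 NFAT core, 120 to 116 bases before the gene, on the minus strand relative to it. The Tnfrsf8 window held an AP-1 match 132 to 126 bases before the start and NF-kB matches in 2 overlapping registers, 168 to 159 and 167 to 158 bases before the start, each on both strands. The Tnf window held 3 NFAT cores on the minus strand and a TATA box 29 to 24 bases before the start. Of 32536 promoter windows of 250 bases, 55.7% held an NFAT core, 12.3% a TATA box, 7.28% an NF-kB match, 6.73% an AP-1 match and 3.17% a forkhead match. Of windows of 150 bases, 37.7% held an NFAT core. These matches describe the letters only.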

How the data were processed

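Libraries were grouped by the sample titles, 2 per group, and the 5 genes and all lists were chosen with earlier results of these data known. The authors deposited estimated counts per gene, from Salmon 0.9.1 on mm10 per the submitters' processing notes with tximport named in the file itself. The authors also deposited log2 values, made with DESeq2 per the submitters' processing notes, whose transform is not given in the sources used here. Their fold changes were smaller than those of the counts for genes with low counts. Whether counting used strand is not given either, and 18 rows carry date-like names.

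Estimated counts were rounded and tested in R 4.3.3 with edgeR 4.0.16 (quasi-likelihood, TMM, filterByExpr). The filter kept 9495 genes and removed 1991. The fit held 6 group means over 12 libraries with 6 residual degrees of freedom, and p-values were adjusted by Benjamini-Hochberg over all genes in each of 10 comparisons, at 0.05. Log2 CPM used a prior count of 2. Totals of 18358477 to 26852448 counts make 3 counts equal to 0.105 to 0.167 CPM in a library, for counting error only. The test was checked on simulated data.

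Alternatives were DESeq2 1.42.0 (Wald test), its size factors in edgeR (RLE), testing without the filter on low counts, limma 3.58.1 on the deposited log2 values, fits of only the groups compared, a replicate block, a tag term, leaving out each library, and leaving out young Treg 2 with aged Treg 1. Scaling to T cell markers and leaving out both L3 libraries were added after the data were seen. Named genes are the members, up to 6 called list genes per comparison with the smallest adjusted p, and genome neighbours. Also named are the 3 genes most correlated with each member among those with a mean of at least 4 CPM. Dcaf1, Foxp3, Il2ra and Xist served as checks. Further list genes were named after their values were seen, as stated where they appear.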

Additional observations from a re-analysis of the deposited data

How the results depend on the processing

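With groups of 2 libraries, the number of the 5 genes called by edgeR moved with the processing, and the cause was not tested. In aged against young Tconv, 5 were called, and 3 with no low-count filter, with a tag term, with T cell marker scaling and without the L3 libraries, 0 when only those groups were fitted, and 0 to 4 with 1 library left out. In young Treg against Tconv 2 were called (0.8%), and 0 with only those groups fitted (0.0229%). Leaving out 1 library leaves a group of 1, and calls were lost in some of those fits. In aged Treg against Tconv 1 was called (0.821%), and 0 with only those groups fitted (0%). There 2 were called by DESeq2 (10.2%), by limma (1.69%) and with T cell marker scaling (7.48%). In Treg against Tconv labelled Dcaf1-deficient 2 were called (2.22%), and 5 with only those groups fitted and with T cell marker scaling, where 51.8% and 76.9% of all genes were called. Some fits with 1 library left out lost a call. In all Treg against all Tconv 3 were called (22.5%), and 5 with T cell marker scaling, where 84.9% of all genes were called. In aged against young Treg 0 were called (0%), and 3 by DESeq2 (7.6%). Some fits that left 1 library in a group moved the number as well. For the Dcaf1 label 0 were called in either cell type (0%). In Tconv 2 were called by DESeq2 (2.39%) and with only those groups fitted (12.2%), and in Treg 3 by DESeq2 (12.5%). Without young Treg 2 and aged Treg 1, which leaves 1 young Treg library, the number in Treg moved too. In the difference of age effects 0 were called (0%), and 1 by DESeq2 (1.41%) and with a tag term (0.484%). Leaving out the L3 libraries, which leaves 1 library in each aged group, also moved the number.

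Of 735 recomputed log2 fold changes of the members, 25 changed sign, none of a member called in that comparison. In aged Treg against Tconv, Tnfsf4 was -0.0628 with a tag term, -0.72 without young Treg 2 and aged Treg 1 and -0.72 to 1.07 with 1 library left out. Tnfrsf4 there was -0.31 to 1.825 with 1 library left out, and Tnf 0.0711 with a tag term and 0.77 with T cell marker scaling, which gave 0.97 for Tnf in the libraries labelled Dcaf1-deficient. In all Treg against all Tconv, Tnf was 0.20 with a tag term, 0.0155 without that pair of Treg libraries, 0.90 with T cell marker scaling and -0.17 to 0.0267 with 1 library left out. In Treg labelled Dcaf1-deficient against young Treg, Tnfrsf4 was 0.72 with T cell marker scaling and -0.33 to 0.0318 with 1 left out, and Tnf -0.0831 without the pair and -0.0907 to 0.27 with 1 left out. In the difference of label effects, limma gave 0.0194 for Tnfsf4 and 0.26 for Tnfrsf8, a tag term 0.00584 for Tnfrsf8, T cell marker scaling 0.0728 for Tnfrsf4, 0.69 for Tnfrsf8 and 0.0233 for Tnf, and leaving out 1 library -0.52 to 0.32 for Tnfrsf8.

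The labels do not say whether replicate numbers pair Treg with Tconv. Replicate differences of Treg and Tconv correlated at 0.677 in young cells, 0.271 in aged cells and 0.0414 in the libraries labelled Dcaf1-deficient. Over all pairs of groups the range was -0.656 to 0.677. Whether any samples are paired is thus not known. With a replicate block Tnf in aged against young Tconv had a log2 fold change of 0.78 (edgeR adjusted p 0.0597), and the block changed no other member's call. A group left with 1 library was assumed to vary like the others. Depth limits Tnfsf4 most, with 5 and 10 counts in young Tconv.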
